A study of Mus musculus with 6 samples.

Results

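Integrin subunits are followed here across the RNA-Seq data of MPCs, as 10 genes out of the 24469 loci of the deposited table. The 10 genes were Itga3, Itga5, Itga6, Itga9 and Itgav, which encode α subunits, and Itgb1, Itgb2, Itgb3, Itgb5 and Itgb8, which encode β subunits. They were chosen by symbol with earlier results of these data known, and each symbol had 1 locus. The gene lists further below were also chosen with those results known. The shares of all tested loci beside the counts are therefore given for scale, and an excess over them is no support for a set. MPCs are mouse podocytes, the epithelial cells that cover the glomerular capillaries, kept as a line that was conditionally immortalized. In all, 3 groups of 2 libraries were available. Every library came from cells differentiated for 10 days without interferon gamma, starved of serum for 12 h and then kept in high glucose (HG, 25 mM) for 12 h. The HG group received no pretreatment. The rFGF1WT and rFGF1ΔHBS groups were first given 100 ng/mL of recombinant fibroblast growth factor 1 for 1 h, either the wild-type protein or the variant in which substitutions in the heparan sulfate binding site weaken receptor dimerization. The line had been expanded on plates coated with collagen I, and all 6 libraries derive from this single line. Cells at normal glucose are not part of the comparisons, which describe FGF1 on top of HG and not the effect of HG. The replicates are labelled as separate samples, but the labels do not say whether they were separate cultures, so the p-values measure a spread that may be technical.

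Integrins are transmembrane receptors made of 1 α and 1 β subunit that bind extracellular matrix outside the cell and the actin cytoskeleton inside it. The β1 chain pairs with many α chains, among them α3, α5, α6, α9 and αv, whereas the β2 chain is the subunit of leukocyte integrins and the β3, β5 and β8 chains pair with αv. In podocytes the α3β1 receptor for laminin anchors the foot processes to the glomerular basement membrane, and loss of either chain damages the filter. Talin and kindlin bind the β tail and switch the receptor on, and a plaque of vinculin, paxillin, integrin-linked kinase and α-actinin couples it to actin.

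The start regions of the genes are shown first, as a description. Differences in response between members were not tested. The RefSeq promoter table (GRCm38.p6) held a start for 7 of the 10 members, with 2 starts for Itga3, and Itga6, Itgb2 and Itgb3 had no entry. The sequences below run 5′ to 3′ on the strand of the gene, end at the base before the start or at the first annotated exon base, and carry in capitals each match to the GC box (GGGCGG or, on the other strand, CCGCCC). Itga3 and Itgb1 are shown because their mRNA rose with both proteins, Itgav because its values were higher without passing the test, and Itga5 because its mRNA did not pass the test in either comparison.

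Itga3, chr11:95076802-95076964, minus strand: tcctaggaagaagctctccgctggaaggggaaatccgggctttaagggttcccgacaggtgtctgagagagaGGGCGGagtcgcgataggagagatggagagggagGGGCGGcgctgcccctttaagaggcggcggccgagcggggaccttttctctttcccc
Itgb1, chr8:128685404-128685653, plus strand: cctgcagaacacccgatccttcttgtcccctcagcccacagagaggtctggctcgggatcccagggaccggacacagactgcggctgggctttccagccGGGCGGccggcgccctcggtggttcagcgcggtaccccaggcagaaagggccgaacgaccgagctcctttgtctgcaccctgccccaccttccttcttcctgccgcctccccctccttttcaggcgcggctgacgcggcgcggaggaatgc
Itgav, chr2:83724147-83724396, plus strand: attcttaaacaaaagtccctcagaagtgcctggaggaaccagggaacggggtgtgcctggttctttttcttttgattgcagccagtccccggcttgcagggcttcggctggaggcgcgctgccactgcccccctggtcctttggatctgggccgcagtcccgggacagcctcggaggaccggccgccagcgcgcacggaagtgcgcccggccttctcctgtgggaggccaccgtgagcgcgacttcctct
Itga5, chr15:103366792-103367041, minus strand: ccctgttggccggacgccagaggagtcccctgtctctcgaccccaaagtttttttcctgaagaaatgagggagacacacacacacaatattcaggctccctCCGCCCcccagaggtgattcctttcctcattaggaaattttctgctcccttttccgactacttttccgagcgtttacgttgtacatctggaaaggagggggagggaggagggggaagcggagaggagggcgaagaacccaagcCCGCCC

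Within the 250 bases before each start, the GC box was found in Itga3, Itga5, Itgb1 and Itgb5, and 32.7% of the 32851 windows of the same length in the table held one. The first window of Itga3 also held 1 ETS match (CCGGAAG, from base -89 to base -83 before the start, of which all but the first bases lie in an annotated exon and are not printed), a sequence found in 6.91% of the windows. No member window held the AP-1 sequence TGANTCA or a CArG box, which were present in 6.75% and 1.47% of all windows. The GC box was thus found in members that rose (Itga3, Itgb1) and in members that did not pass the test (Itga5, Itgb5), and a match describes only these letters.

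Expression was given as FPKM, fragments scaled to exon length and to the mapped reads of the library, which allows levels of different genes to be set side by side. All 10 members were above 0 in every library and passed the filter of a mean FPKM of at least 1. Itgb2 and Itgb3 did so only because of the treated libraries, since their HG means were 0.434 and 0.772 FPKM. The libraries were alike in inferred depth, at 22300000 to 23200000 read pairs each. This was read from single-transcript loci, as the commonest product of FPKM and transcript length (the step). The step was sought only within 1 fixed window, which bounded the depth beforehand. Only 32.1% to 35.9% of low values lay at multiples of the step divided by 2, so the depth is only an estimate. The FPKM of each library summed to between 179594 and 185168, which does not measure depth because FPKM are already scaled to it. Over the loci that passed the filter, log2(FPKM + 1) of replicates correlated at a Pearson r of 0.916 to 0.923. Between libraries of different groups r was 0.895 to 0.924, so replicates were not clearly more alike than libraries of different groups. Of the podocyte markers, 9 of 10 were found and 4 passed the filter. Their summed FPKM was 80.2 to 83.2 in HG, 81.4 to 99.2 with rFGF1WT and 83.8 to 86.4 with rFGF1ΔHBS, but this sum was carried by Cd2ap, an adaptor of the slit diaphragm (51.3 to 76.2 FPKM). Without Cd2ap the sum was 27.3 to 28.9 in HG, 22.5 to 23 with rFGF1WT and 22.8 to 25.5 with rFGF1ΔHBS. Synpo, the podocyte actin-binding protein synaptopodin, averaged 9.91 FPKM in HG, 4.73 with rFGF1WT and 5.83 with rFGF1ΔHBS (log2 differences -0.94, limma adjusted p = 0.0787, and -0.69, adjusted p = 0.131). The defining marker Wt1 did not exceed 0.0731 FPKM in any library. The cells are therefore called MPCs here by their label, and Wt1 was nearly absent. Markers of other kidney cells were also summed. The 6 endothelial markers were all below the filter, with sums of 0.0712 to 0.185 FPKM. The tubule markers, 4 found of 6, summed to 114 to 123 FPKM in HG, 93.1 to 94.3 with rFGF1WT and 91.1 to 96.3 with rFGF1ΔHBS. The mesangial and fibroblast markers, all 6 found, summed to 35.1 to 35.8, 29.9 to 31.3 and 30.1 to 31.2 FPKM. Both sums were lower in all treated libraries, but few genes carried them. Most of the tubule sum was Cdh16 (means 90.6 FPKM in HG, 71.1 with rFGF1WT and 70.3 with rFGF1ΔHBS) and Lrp2 (27.7, 22.5 and 23.3). Most of the mesangial and fibroblast sum was Pdgfrb (32.2, 26.9 and 26.8), while Gata3 went the other way (2.24, 2.88 and 2.99). No single gene of these lists was called by limma, and their part in the results below was not tested. Because RNA came from whole cultures, fewer cells of a type and less RNA per cell cannot be told apart.

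Itgb1 was the most abundant member, with a mean over the 6 libraries of 218 FPKM and a range from 187 to 237. Itga3 followed at a mean of 124 (64.2 to 160) and Itgb5 at 106 (99.9 to 110), and their ranges overlapped because Itga3 lay below Itgb5 in HG and above it with either protein. In mean FPKM, Itgb1, Itga3 and Itgb5 were at or above 99.5%, 98.5% and 98.1% of the tested loci. Itga5 averaged 28.9 FPKM (25.1 to 31.6), Itgav 18.9 (10.7 to 25.4), Itga9 8.63 (6.03 to 15.7) and Itga6 5.05 (4.65 to 5.51), where the ranges of Itga5 and Itgav overlapped, as did those of Itgav and Itga9. Itgb3, Itgb2 and Itgb8 were lowest, at means of 1.16, 1.08 and 1.06 FPKM, and their ranges overlapped each other, so no order among them can be read.

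**Figure D1:**
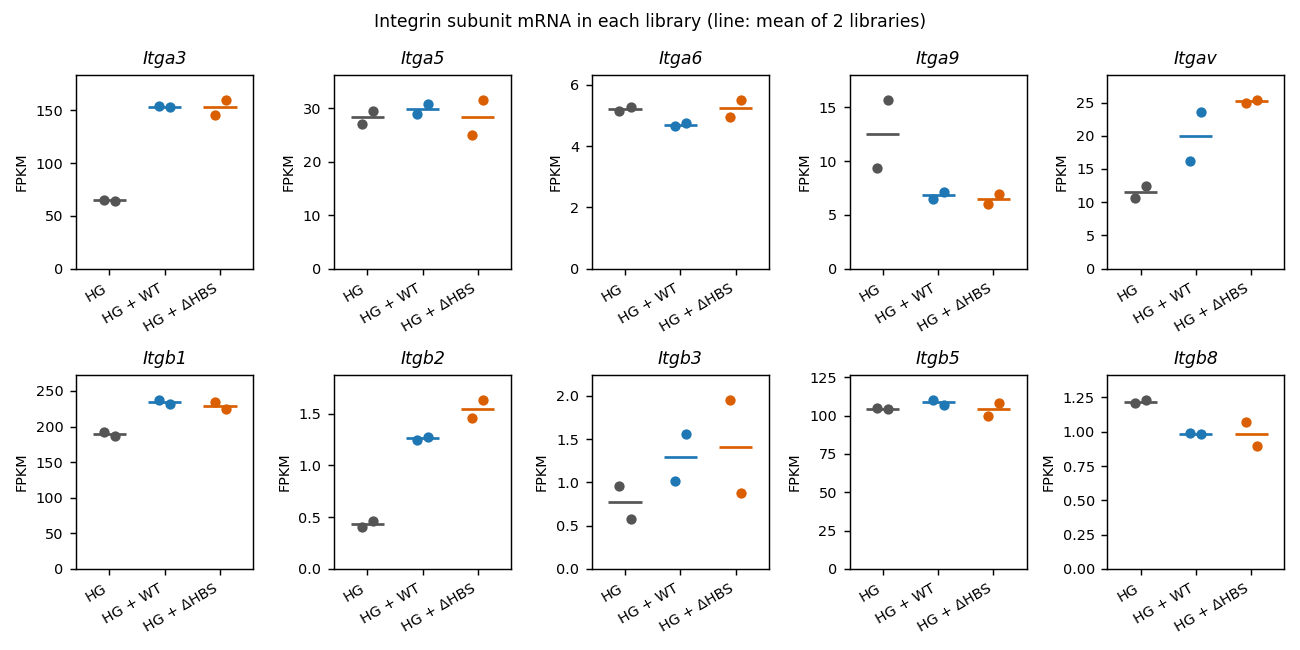
FPKM of the 10 integrin subunits in each of the 6 libraries, by group (x axis), on linear y axes that start at 0 and differ between panels; points are libraries and lines are means of 2 libraries. Itga3 stood at 64.2 to 65.1 FPKM in HG and at 146 to 160 with either protein, while Itgb5 stayed between 99.9 and 110 in all libraries.

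The first question was which subunits differed between HG alone and HG with rFGF1WT. In a limma fit of log2(FPKM + 1) over 10562 loci, 3 of the 10 members rose (Itga3, Itgb1 and Itgb2) and 0 fell at a Benjamini-Hochberg adjusted p under 0.05, where 6.19% of all tested loci passed, 3.26% upward and 2.94% downward. Itgb2 entered the test only through the treated libraries, so its call is no support for the count, and among the 8 members whose HG mean itself reached the filter 2 rose and 0 fell. With the additional limit of a 2-fold change, 1 member passed (Itga3), against 1.01% of loci. The unadjusted p was under 0.05 for 5 members and for 24.8% of the loci. The median log2 fold change of the members was 0.18, and that of all tested loci was -0.04. The count of 5 includes Itgb2, and the median includes Itgb2 and Itgb3. The filter kept both genes only because of the treated libraries, so neither value is support for a shift of the members. Over the 5 α members, whose HG means all reached the filter, the median was 0.07.

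With rFGF1ΔHBS against the same HG libraries, the same 3 members rose and 0 fell, where 6.26% of loci passed, 3.37% upward and 2.89% downward (again 2 of the 8 members whose HG mean reached the filter), and 1 member (Itga3) passed the 2-fold limit, against 0.899% of loci. The median of the members was 0.13 on the log2 scale and that of all loci -0.036. The members' median again includes Itgb2 and Itgb3, and that of the 5 α members was 0. Both comparisons share the HG libraries, so their values are given side by side and are not 2 independent results.

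Itga3, at chr11:95044474-95076801 of GRCm38 on the minus strand, encodes the α chain of the laminin receptor α3β1. Its locus joined 6 annotated transcripts with up to 26 exons. FPKM was 65.1 and 64.2 in the HG libraries, 154 and 153 with rFGF1WT, and 146 and 160 with rFGF1ΔHBS. All 4 treated libraries lay far above both HG libraries, with no overlap. The means were 64.7 ± 0.574 (SD, n = 2), 153 ± 0.587 and 153 ± 9.6 FPKM. Against HG, the log2 fold change was 1.23 with rFGF1WT (SE 0.0567, 95% confidence interval 1.08 to 1.39, limma adjusted p = 0.00484), which is 2.35-fold. With rFGF1ΔHBS it was 1.23 as well (interval 1.08 to 1.38, adjusted p = 0.0051). Itga3 was the member whose call held most widely: the adjusted p stayed between 0.00463 and 0.0357 with rFGF1WT and between 0.0047 and 0.038 with rFGF1ΔHBS over 12 other settings, which here and below leave out the fit with a replicate block.

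Itgb1, at chr8:128685654-128733200 on the plus strand, encodes the β chain shared by the receptors for laminin, fibronectin and collagen. FPKM was 193 and 187 in HG, 237 and 231 with rFGF1WT, and 234 and 224 with rFGF1ΔHBS. The treated libraries were higher than both HG libraries without overlap, but by far less than for Itga3. The means were 190 ± 4.21, 234 ± 3.86 and 229 ± 6.94 FPKM (SD, n = 2 each). The log2 fold change was 0.30 with rFGF1WT (SE 0.0442, interval 0.18 to 0.42, adjusted p = 0.0404) and 0.26 with rFGF1ΔHBS (interval 0.15 to 0.38, adjusted p = 0.0494). These adjusted p-values were near the threshold, and leaving out any 1 of the 6 libraries moved them to 0.081 to 0.151 with rFGF1WT and to 0.103 to 0.166 with rFGF1ΔHBS. With no filter on FPKM they came to 0.147 and 0.17, and to 0.0816 and 0.105 in fits of only the 4 libraries compared, and the value was 0.0561 for rFGF1WT with quantile normalization.

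Itgb2, at chr10:77530252-77565708 on the plus strand, encodes the β chain of leukocyte integrins. FPKM was 0.407 and 0.46 in HG, 1.25 and 1.27 with rFGF1WT, and 1.46 and 1.63 with rFGF1ΔHBS. The groups did not overlap, and the ratio of mean FPKM to HG was 2.9 with rFGF1WT and 3.56 with rFGF1ΔHBS. On the log2(FPKM + 1) scale, which understates changes of genes this low, the difference was 0.66 (SE 0.0921, interval 0.41 to 0.90, adjusted p = 0.0353) and 0.83 (interval 0.58 to 1.07, adjusted p = 0.0225). Leaving out any 1 library moved the adjusted p to 0.068 to 0.116 and to 0.0574 to 0.0846, and fits of only the 4 libraries compared gave 0.0663 and 0.0569. Without the filter it was 0.0758 with rFGF1WT and 0.0495 with rFGF1ΔHBS. At the inferred depth, and if all fragments came from the longest transcript of the locus, HG would hold 28 and 31 read pairs. The rFGF1WT libraries would hold 83 and 85, and the rFGF1ΔHBS libraries 101 and 109. For the shortest transcript the FPKM would stand for only 3 and 4, 10 and 10, and 12 and 13 read pairs. Leukocyte markers were measured in the same libraries: 11 of 12 were found and 3 passed the filter, and their summed FPKM was 70.8 to 74.5 in HG, 74 to 77.3 with rFGF1WT and 76.5 to 83.2 with rFGF1ΔHBS. Most of this sum was the locus of Cd68, merged with the translation factor Eif4a1 (50.1 to 67.3 FPKM), and without it the sum was 17.7 to 24.4 in HG, 10.9 to 11 with rFGF1WT and 9.21 to 16.1 with rFGF1ΔHBS. Cd14, a coreceptor for lipopolysaccharide, lay between 4.35 and 12.4 FPKM and was not called (adjusted p = 0.61 and 0.705). The other leukocyte markers found were below the filter, with Ptprc at 0.0144 to 0.0548, Adgre1 at 0 to 0.0136 and Tyrobp at 0 to 0.0663 FPKM. The highest of them was Cd74, at 0.853 and 0.989 FPKM in HG, 0.684 and 0.498 with rFGF1WT, and 0.461 and 0.71 with rFGF1ΔHBS. Cd74 thus lay above Itgb2 in HG and was lower in all treated libraries. Of the α chains that pair with β2, Itgal at 0.00673 to 0.0631 and Itgam at 0 to 0.0407 FPKM were near 0. No values are given here for other partners of β2. Among the leukocyte list, Csf1r, the receptor of colony-stimulating factor 1, fell from a mean of 10.1 FPKM to 3.44 and 3.85 (log2 fold change -1.32, adjusted p = 0.0114, and -1.19, adjusted p = 0.014), and the merged Cd68 locus rose (0.32, adjusted p = 0.0496, and 0.37, adjusted p = 0.0363). When a library was left out, Csf1r was called in 5 of 6 fits with rFGF1WT and in 2 of 6 with rFGF1ΔHBS (adjusted p up to 0.0686), and Cd68 in none. Those markers' part in the result for Itgb2 was not tested.

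Itgav, at chr2:83724397-83806916 on the plus strand, encodes the αv chain of the receptors for vitronectin and latent transforming growth factor β. FPKM was 10.7 and 12.5 in HG, 16.2 and 23.6 with rFGF1WT, and 25 and 25.4 with rFGF1ΔHBS. The treated libraries were all higher than HG, and both rFGF1ΔHBS libraries lay above both rFGF1WT libraries, which differed widely from each other. The log2 difference from HG was 0.71 with rFGF1WT (SE 0.194, interval 0.19 to 1.23, adjusted p = 0.121) and 1.06 with rFGF1ΔHBS (interval 0.54 to 1.58, adjusted p = 0.0577), neither of which passed the threshold. The second moved below it in 4 of 12 other settings, with an adjusted p of 0.0493 to 0.197, among them the fits without rFGF1WT replicate 1 (0.0493) and without rFGF1WT replicate 2 (0.0495). The locus overlaps Gm13684 and the pseudogene Dnmt3l-ps1 on the opposite strand, and whether strand was used in counting is not given in the sources used here.

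Itga9, at chr9:118606690-118901003 on the plus strand, encodes the α chain of a receptor for tenascin-C and osteopontin. FPKM was 9.39 and 15.7 in HG, 6.52 and 7.16 with rFGF1WT, and 6.03 and 6.97 with rFGF1ΔHBS. Both HG libraries lay above all treated libraries, but they were also far apart, with a mean of 12.5 ± 4.46 (SD, n = 2). The log2 difference from HG was -0.75 (SE 0.248, interval -1.42 to -0.08, adjusted p = 0.168) with rFGF1WT and -0.82 (interval -1.48 to -0.15, adjusted p = 0.144) with rFGF1ΔHBS, and did not pass the test. Without HG replicate 2, the library at 15.7, the difference shrank to -0.41 and -0.47. The antisense gene Gm2415 and the pseudogene Gm10157 overlap the locus on the opposite strand.

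**Figure D2:**
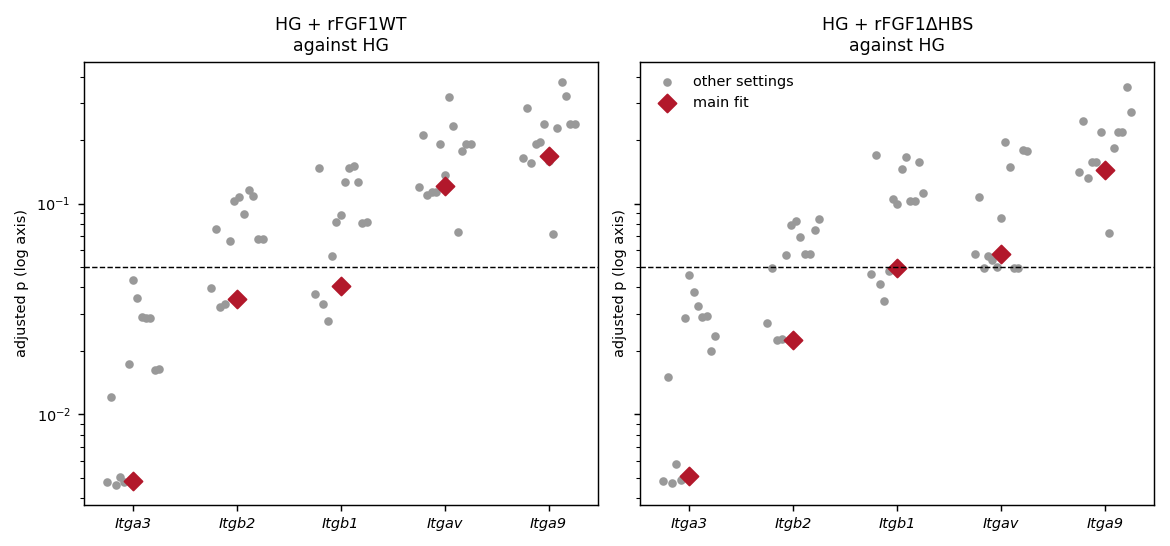
Adjusted p from limma (log y axis) of the 5 members with an unadjusted p under 0.05, for each protein against HG; diamonds are the values reported and grey points those of the other settings, the replicate block included, with a dashed line at 0.05. Itga3 lay below the line throughout, Itgb1 and Itgb2 on both sides of it, and Itga9 above it.

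The other 5 members did not pass the test in either comparison. Itga5, at chr15:103344286-103366763, encodes the α chain of the fibronectin receptor. Its FPKM was 27.1 and 29.6 in HG, 28.9 and 30.9 with rFGF1WT, and 25.1 and 31.6 with rFGF1ΔHBS, so the groups overlapped. The log2 differences were 0.07 (adjusted p = 0.762) and -0.01 (adjusted p = 0.98). Itgb5, at chr16:33829665-33949338, encodes a partner of αv that binds vitronectin. Its FPKM was 105 and 104 in HG, 110 and 107 with rFGF1WT, and 99.9 and 108 with rFGF1ΔHBS, a narrow span for a gene this abundant. The log2 differences of Itgb5 were 0.05 (adjusted p = 0.634) and -0.01 (adjusted p = 0.96).

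Itga6, at chr2:71745616-71858416, encodes the α chain of further laminin receptors. Its FPKM was 5.15 and 5.28 in HG, 4.65 and 4.76 with rFGF1WT, and 4.96 and 5.51 with rFGF1ΔHBS, with log2 differences of -0.12 (adjusted p = 0.368) and 0.00 (adjusted p = 0.992). The rFGF1WT libraries lay below the other 4, by less than the test could call. The Itga6 locus overlaps Gm13663 and Gm13662 on the same strand and Gm17250 and Gm13739 on the opposite one, and Itga5 overlaps the microRNA gene Mir6963, so fragments there may be divided between genes. Itgb3, at chr11:104608000-104670476, encodes the β chain of the αvβ3 receptor. Its FPKM was 0.963 and 0.58 in HG, 1.02 and 1.56 with rFGF1WT, and 1.95 and 0.872 with rFGF1ΔHBS. At the inferred depth this amounts, for its single transcript, to between 75 and 262 read pairs. Replicates of Itgb3 differed by as much as the groups did, and the log2 differences of 0.37 (adjusted p = 0.485) and 0.42 (adjusted p = 0.435) were not called. Itgb8, at chr12:119158022-119238802, encodes a further partner of αv, which binds latent transforming growth factor β. Its FPKM was 1.21 and 1.23 in HG, 0.991 and 0.983 with rFGF1WT, and 1.07 and 0.899 with rFGF1ΔHBS. All 4 treated libraries were below HG, with log2 differences of -0.16 in both comparisons (adjusted p = 0.379 and 0.374).

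**Figure D3:**
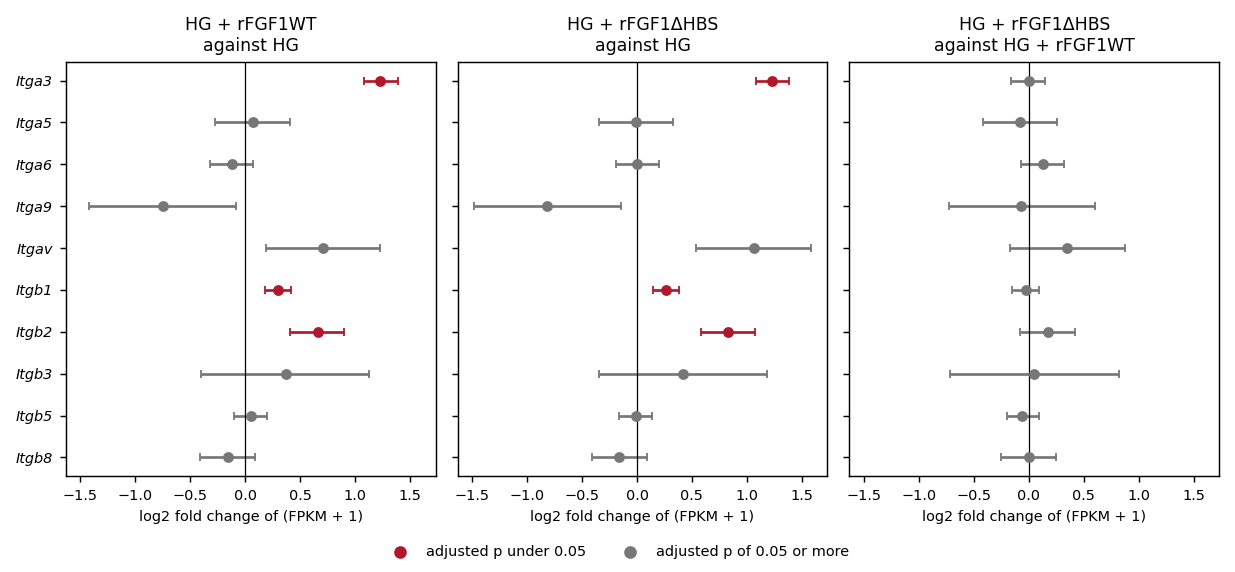
Log2 fold change of FPKM + 1 (x axis) of the 10 members in the 3 comparisons; points are limma estimates, bars 95% confidence intervals, and red marks an adjusted p under 0.05. Itga3, Itgb1 and Itgb2 are red in both comparisons with HG, and no member is red between the proteins.

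The second question was whether the variant with the weakened heparan sulfate site differed from the wild-type protein. Between rFGF1ΔHBS and rFGF1WT, which share dose and time, 0 of the 10 members passed the limma test at an adjusted p under 0.05, where 0.549% of the loci did, and 0 with the 2-fold limit, where 0.350% did. The count at an unadjusted p under 0.05 was also 0 of 10, against 4.87% of all loci, and the smallest unadjusted p was 0.131 (Itgb2). For Itga3 the log2 difference was 0.00 with an interval from -0.16 to 0.15, which as a ratio runs from 0.897 to 1.11. For Itgb1 it was -0.03 (-0.15 to 0.09) and for Itgb5 -0.06 (-0.20 to 0.09). The intervals were wider for Itgav, at 0.35 (-0.17 to 0.87), for Itgb2, at 0.17 (-0.08 to 0.42), for Itga9, at -0.07 (-0.73 to 0.60), and for Itgb3, at 0.05 (-0.72 to 0.82). For each member, differences inside its interval were not excluded, and the intervals are not limits of detection. For Itga5 the difference was -0.08 (-0.42 to 0.26), for Itga6 0.13 (-0.07 to 0.32) and for Itgb8 0.00 (-0.25 to 0.25). An exact permutation test of 2 against 2 libraries cannot give a p below 0.333 and was not used for single members.

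The mixture of α subunits held more Itga3 in the treated libraries, which is given as a description of the same FPKM. Itga3 made up 55.4% and 50.5% of the summed FPKM of the 5 α members in HG, 73.2% and 69.8% with rFGF1WT, and 70.6% and 69.7% with rFGF1ΔHBS. Itga5 made up 23.1% and 23.3% in HG, 13.8% and 14.1% with rFGF1WT, and 12.1% and 13.8% with rFGF1ΔHBS, although its own FPKM overlapped between groups. The sum itself was 117 and 127 FPKM in HG and 207 to 229 in the treated libraries. On the β side, Itgb1 held 64.2% and 63.8% in HG and 66.7% to 69.1% in the treated libraries, Itgb5 held 29.5% to 35.4% throughout, and Itgb2, Itgb3 and Itgb8 were each under 1%. The ratio of Itga3 to Itgb1 FPKM was 0.337 and 0.343 in HG, 0.65 and 0.662 with rFGF1WT, and 0.626 and 0.714 with rFGF1ΔHBS. The laminin-binding α chains were further apart, with an Itga3 to Itga6 ratio of 12.6 and 12.2 in HG against 29 to 33.1 in the treated libraries. The ratio of Itgav to Itgb5 was 0.102 and 0.12 in HG, 0.148 and 0.221 with rFGF1WT, and 0.25 and 0.235 with rFGF1ΔHBS. Ratios of mRNA do not give the amounts of assembled receptors.

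**Figure D4:**
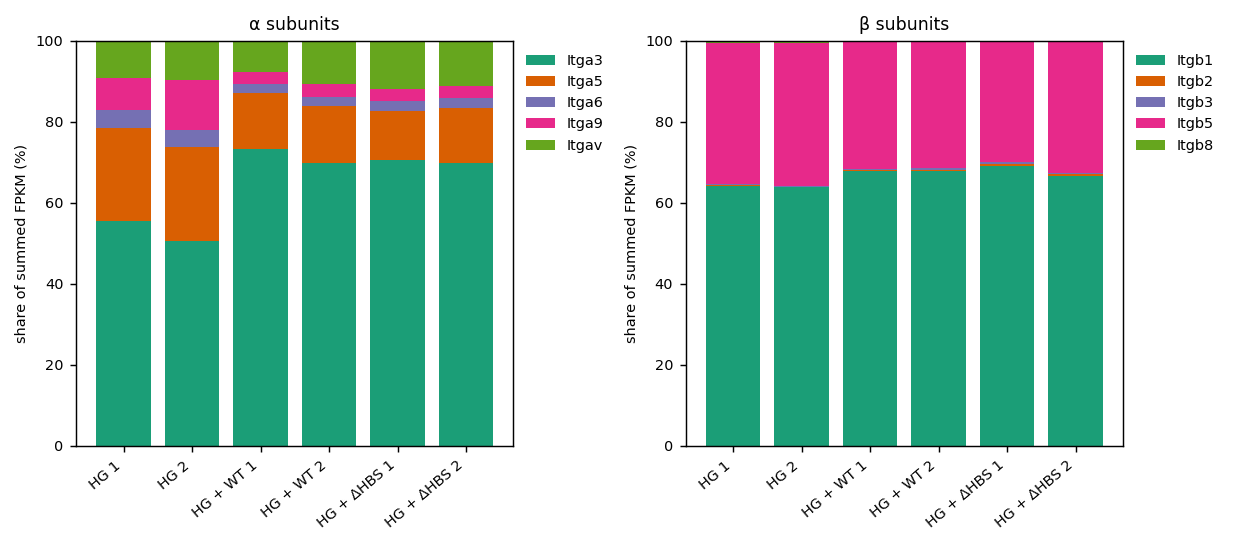
Share (%) of the summed FPKM of the 5 α members (left) and of the 5 β members (right) held by each subunit in the 6 libraries (x axis), with bars that add up to 100%. Itga3 takes 50.5% to 55.4% of the α sum in HG and 69.7% to 73.2% in the treated libraries, while Itgb1 takes 63.8% to 69.1% of the β sum throughout.

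The members share KEGG labels in the deposited annotation. This follows from their choice as integrin genes and is not a result of these libraries. In that annotation 9 of the 10, all but Itgb2, belonged to the PI3K-Akt signaling pathway, which held 1.83% of the tested loci, and the same 9 to focal adhesion (1.19%) and ECM-receptor interaction (0.369%). All 10 were annotated to regulation of the actin cytoskeleton (1.3% of tested loci), and 3 members, Itgb1, Itgb2 and Itgb3, to the Rap1 pathway (1.16%). Itga3 and Itgb1, which rose, and Itga5 and Itgb5, which did not pass the test, carry the same PI3K-Akt label.

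Of 16 further integrin subunits, 14 were found and 3 passed the filter, and 0 passed the limma test in any of the 3 comparisons. Itga1, the α chain of a collagen receptor, whose locus is merged with Pelo and AC175538.2, was at 5.24 and 5.2 FPKM in HG, 3.94 and 3.37 with rFGF1WT, and 3.74 and 3.77 with rFGF1ΔHBS. Its log2 differences were -0.42 (adjusted p = 0.0686) and -0.39 (adjusted p = 0.0772), and the unadjusted p-values were 0.00554 and 0.00765. Itga7, a laminin-binding chain of muscle, averaged 3.66 FPKM in HG, 3.84 with rFGF1WT and 3.9 with rFGF1ΔHBS. The chains below the filter were Itga2, Itga2b, Itga4, Itga8, Itga11, Itgae, Itgal, Itgam, Itgb4, Itgb6 and Itgb7.

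Among 10 genes for integrin activators, 6 passed the filter, 0 were called with rFGF1WT and 1 fell with rFGF1ΔHBS, where 2.89% of all tested loci fell. This was Tln2, which encodes a talin, at 3.08 and 3.26 FPKM in HG, 2.19 and 2.06 with rFGF1WT, and 2.09 and 2.05 with rFGF1ΔHBS. Its log2 difference was -0.42 with rFGF1WT (adjusted p = 0.0552) and -0.44 with rFGF1ΔHBS (adjusted p = 0.0488), so both lay at the threshold and the difference between the proteins was not called. Tln1, the talin gene with higher FPKM here, averaged 61 FPKM in HG, 74.5 and 75.5, with log2 differences of 0.28 (adjusted p = 0.101) and 0.30 (adjusted p = 0.0898). Of 7 genes for inactivators, 6 passed the filter and 1 rose in both comparisons, against 3.26% and 3.37% of all tested loci. Flna, the actin crosslinker filamin A that competes with talin for the β tail, was at 144 and 136 FPKM in HG, 191 and 182 with rFGF1WT, and 194 and 195 with rFGF1ΔHBS, with log2 fold changes of 0.41 (adjusted p = 0.0258) and 0.47 (adjusted p = 0.0213). The calls of Tln2 and Flna were lost in every fit that left out a library, with an adjusted p of up to 0.151 for Tln2 and 0.11 for Flna.

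In the adhesion plaque, 20 of 23 genes passed the filter, and 3 rose and 0 fell with each protein, where 3.26% and 3.37% of all tested loci rose. The list's median log2 difference was 0.13 and 0.16, against -0.04 and -0.036 for all loci. A shift of a list as a set was not tested. In the same comparisons the medians were 0.14 and 0.1 for the membrane partners and 0.07 and 0.15 for the inactivators. They were 0 and -0.01 for the activators, -0.05 and -0.08 for the ligands, and -0.24 and -0.14 for the 3 tested further integrin subunits. Vcl, vinculin, was at 45 and 43.9 FPKM in HG, 80.4 and 83.6 with rFGF1WT, and 88.4 and 86.2 with rFGF1ΔHBS (log2 fold changes 0.87, adjusted p = 0.00661, and 0.96, adjusted p = 0.00583). Ilk, integrin-linked kinase, which binds β tails, rose from a mean of 63.6 FPKM to 91.2 and 87.1 (0.51, adjusted p = 0.0181, and 0.45, adjusted p = 0.0225). Actn1, α-actinin, which crosslinks actin at the plaque, rose from 23.1 to 29.6 and 30.3 (0.35, adjusted p = 0.0286, and 0.38, adjusted p = 0.0248). None of these 3 reached a 2-fold change. Vcl was called in 12 of 12 other settings with each protein, whereas Ilk and Actn1 were called in 5 of 12 and in none of the fits that left out a library (adjusted p up to 0.097 for Ilk and 0.106 for Actn1).

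All 9 genes for membrane partners of integrins passed the filter, and 2 of them rose with each protein, against the same 3.26% and 3.37% of loci. Cd9, a tetraspanin that associates with β1 integrins, was at 57.1 and 62.2 FPKM in HG, 138 and 134 with rFGF1WT, and 134 and 141 with rFGF1ΔHBS. Its log2 fold changes of 1.18 (adjusted p = 0.00661) and 1.20 (adjusted p = 0.0067) passed the 2-fold limit and were close in size to those of Itga3. They were called in 12 of 12 other settings (adjusted p up to 0.0375). Plaur, the urokinase receptor, rose from a mean of 5.55 FPKM to 11.2 and 10.3 (0.90, adjusted p = 0.0134, and 0.79, adjusted p = 0.017), with calls in 6 and 8 of 12 other settings. Cd151, the tetraspanin that binds α3β1 tightly, averaged 47.5, 61.8 and 58.3 FPKM and did not pass the test (adjusted p = 0.105 and 0.156).

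Of 28 genes for ligands, 26 were found and 16 passed the filter, and 3 rose in each comparison, while 3 fell with rFGF1WT and 2 with rFGF1ΔHBS. Of all tested loci 3.26% and 3.37% rose, and 2.94% and 2.89% fell. Spp1, osteopontin, a ligand of αv and α9 receptors whose locus is merged with Gm42793, was at 18.7 and 17.8 FPKM in HG, 83.4 and 81.8 with rFGF1WT, and 93.6 and 94 with rFGF1ΔHBS. The log2 fold change was 2.12 with rFGF1WT (adjusted p = 0.00102) and 2.30 with rFGF1ΔHBS (adjusted p = 0.00107). Thbs1, thrombospondin 1, rose from a mean of 131 FPKM to 179 and 182 (0.45, adjusted p = 0.0245, and 0.48, adjusted p = 0.0225). Fn1, fibronectin, rose from 119 to 151 and 158 (0.34, adjusted p = 0.0439, and 0.41, adjusted p = 0.0302). The genes that fell included a laminin chain. Lama1, the laminin α1 chain, was at 10.3 and 9.7 FPKM in HG, 5.65 and 5.7 with rFGF1WT, and 5.48 and 6.27 with rFGF1ΔHBS (-0.72, adjusted p = 0.0232, and -0.68, adjusted p = 0.0255). Vcam1, a cell-surface ligand of α4 and α9 receptors, fell from 6.12 to 4.42 and 4.38 (-0.39, adjusted p = 0.0414, and -0.41, adjusted p = 0.0376). Tnc, tenascin-C, fell from 52.9 to 42 with rFGF1WT (-0.33, adjusted p = 0.0433), and with rFGF1ΔHBS it was at 44.8 (-0.23, adjusted p = 0.0783). Of these ligands, Spp1 was called in 12 of 12 other settings with each protein, and Thbs1, Fn1, Lama1, Vcam1 and Tnc in 3 to 5, none of them when a library was left out (adjusted p up to 0.159). In these 5 lists 0 genes were called between rFGF1ΔHBS and rFGF1WT, so the difference of Tnc between the proteins was not shown.

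Among 10271 tested loci above 0 in all libraries, the 5 whose log2(FPKM + 1) followed Itga3 most closely over the 6 libraries were Mycn, Unc5b, Ccnd1, the merged locus of Palm2, Pakap and Akap2, and Stk40, with Pearson r from 0.9985 to 0.9998. This is a description, since 3 pairs of points give little room and 98 loci exceeded an r of 0.99. Mycn, a transcription factor of the MYC family, was at 1.82 and 1.8 FPKM in HG, 7.87 and 7.82 with rFGF1WT, and 7.03 and 8.26 with rFGF1ΔHBS. Ccnd1, cyclin D1, was at 5.53 and 5.05, 40.2 and 39.5, and 39.1 and 42.5 FPKM. In the rFGF1ΔHBS group replicate 2 was the higher for both, as for Itga3, which follows from picking them by their likeness to Itga3.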

How the data were processed

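RNA-Seq libraries of poly(A) RNA were sequenced as paired ends, and the authors deposited 1 table of FPKM per locus, for which their methods name edgeR. The submitters' processing notes also list Bowtie 0.12.2, HISAT2 2.0, StringTie 1.3.0 and the build mm8, yet 99.6% of the table's Ensembl transcripts are in GENCODE M21 (GRCm38), from which positions were taken. Libraries were grouped by their labels.

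The 10562 of 24469 loci whose mean FPKM reached 1 were fitted as log2(FPKM + 1) with limma 3.58.1 in R 4.3.3 (lmFit, contrasts, eBayes with a trend, 3 residual degrees of freedom) for 3 comparisons over all 6 libraries. A call needed an adjusted p (Benjamini-Hochberg) under 0.05 and, where named, a 2-fold change, after the study's methods. The fit was tested on simulated data.

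FPKM do not hold whole reads for most loci, so no count model was run. Of the low values of single-transcript loci, 32.1% to 35.9% lay at a multiple of the step divided by 2. The tolerance was 2% of that unit, by which 4% were expected. The number of libraries and the 3 degrees of freedom limit precision.

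Members and lists were chosen with earlier results of these data known. All members are named, and from other lists up to 8 genes with an adjusted p under 0.05, genes below the filter by name, and marker genes. Tln1, Cd151, Itga1 and Itga7 were named after their values were seen, and the values of 2 list genes are not reported here. Promoters came from RefSeq. The 13 alternatives were a pseudocount of 0.1, 2 filters, 2 scalings, only the 4 libraries compared, a replicate block, and leaving out each of the 6 libraries. Applying them to other lists was decided after seeing the data. Annotation and plots used matplotlib 3.10.9, pandas 2.3.3 and numpy 2.4.6 in Python 3.11.15.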

Additional observations from a re-analysis of the deposited data

How the results depend on the processing

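With 2 libraries per group and 3 residual degrees of freedom, adjusted p-values near 0.05 moved with most choices. Itga3 passed the threshold against HG with both proteins under all 13 alternatives. The count of 3 members called with rFGF1WT became 1 with no filter, 1 in a fit of only the 4 libraries compared, and 1 in every fit that left out a library (range 1 to 1). With rFGF1ΔHBS the count of 3 became 1 to 2 when a library was left out. With the 2-fold limit the count of 1 became 2 at a pseudocount of 0.1 with each protein (Itga3 and Itgb2). With rFGF1ΔHBS it also became 2 with a filter at 5 FPKM and in the fit of only the 4 libraries (Itga3 and Itgav), and was 1 to 2 when a library was left out, while with rFGF1WT it was 1 to 1. Between the proteins the count was 0 under every alternative. Itgb2, Itgb3 and Itgb8 had no value with the filter at 5 FPKM. A group left with 1 library was assumed to vary like the others.

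The replicate numbers did not pair the libraries (correlations of deviations -0.021, 0.098 and -0.047). With the replicate block, 1 member (Itga3) was called against HG with each protein (adjusted p = 0.0433 and 0.0456, its highest values), and the count of loci called went from 654 to 41 and from 661 to 39. Of the other lists' genes called in 12 of 12 settings, the block gave an adjusted p of 0.0521 and 0.0483 for Vcl, 0.0476 and 0.0456 for Cd9, and 0.0183 and 0.0208 for Spp1. Without the filter 407 and 386 loci were called, in the fits of only 4 libraries 170 and 189, and when a library was left out 134 to 195 and 118 to 198.

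Signs changed only for members that were not called, and the cause was not tested. With rFGF1ΔHBS against HG, median-ratio scaling gave 0.0334 for Itga5 and 0.0361 for Itgb5, and leaving out a library gave -0.168 to 0.151 for Itga5, -0.0615 to 0.067 for Itga6 and -0.0646 to 0.0503 for Itgb5. Between the proteins, quantile normalization gave 0.0161 for Itga3 and 0.0161 for Itgb1, and leaving out a library gave -0.0682 to 0.0589 for Itga3, -0.242 to 0.0778 for Itga5, -0.157 to 0.0252 for Itga9, -0.279 to 0.379 for Itgb3, -0.113 to 0.00198 for Itgb5 and -0.0659 to 0.0605 for Itgb8. Of the members' differences under alternatives, 108, 99 and 117 kept direction and side of the threshold for rFGF1WT against HG, rFGF1ΔHBS against HG and between the proteins.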

Other observations

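Besides Itga1, 4 genes of the integrin lists had an adjusted p from limma between 0.05 and 0.1 against HG with both proteins, a limit chosen after their values were seen. Pxn, paxillin, an adaptor of the adhesion plaque, was at 39.5 and 41.6 FPKM in HG, 30.5 and 31.5 with rFGF1WT, and 27.5 and 31.2 with rFGF1ΔHBS, with log2 differences of -0.38 (adjusted p = 0.0772) and -0.45 (adjusted p = 0.0524). It was lower than HG in all 4 treated libraries. Vasp, which promotes actin filament growth at adhesions, was at 13.2 and 14.6 FPKM in HG, 18.5 and 19.2 with rFGF1WT, and 17.2 and 18.5 with rFGF1ΔHBS (0.42, adjusted p = 0.0593, and 0.34, adjusted p = 0.0839). Actn4, the α-actinin abundant in podocytes, was at 86.4 and 83.2, 104 and 101, and 99.7 and 106 FPKM (0.27, adjusted p = 0.0701, and 0.28, adjusted p = 0.0631). Both were higher than HG in all 4 treated libraries. Lamb2, the laminin β2 chain of the glomerular basement membrane, was at 35.9 and 37.5, 29.7 and 29.5, and 28.1 and 30.5 FPKM (-0.30, adjusted p = 0.0722, and -0.32, adjusted p = 0.0631), with all 4 treated libraries below HG.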
